A study of Taeniopygia guttata with 46 samples.

Results

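The genes described here were the 150 telencephalon-enriched genes whose level differed most from bird to bird among zebra finches kept at the same air temperature. They were taken from 18618 genes counted in posterior telencephalon and testis. A level is given as CPM, the count of a gene divided by the total of its library and multiplied by 1000000. Enrichment was the log2 ratio of the mean telencephalon level to the mean testis level, each plus 0.1 CPM. A gene was eligible with a ratio between 2 and 5 and a mean telencephalon level of at least 5 CPM, which 1697 genes met. The 150 members were the eligible genes with the highest standard deviation (SD) over 24 telencephalon libraries of log2(CPM + 0.5), after the mean of each temperature group was subtracted. Both the enrichment and the SD values of the members were what they were selected on, and they are given as descriptions with no test.

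The birds were 24 adult male zebra finches (Taeniopygia guttata) held for 5 h at 27, 35 or 43 °C, with 8 birds at each temperature. The labels place 27 °C below, 35 °C within and 43 °C above the thermoneutral zone, the span of air temperatures over which a bird at rest neither raises its heat production nor has to shed heat actively. Each bird gave 1 posterior telencephalon library, and 22 of the birds, numbering 7, 8 and 7 at 27, 35 and 43 °C, also gave testis. No genotype, strain, age in days or drug is given in the labels, and brains were frozen and dissected by hand into regions. The libraries held 10201598 to 16862943 counts in telencephalon and 14232073 to 25440619 in testis, and no 2 of a group agreed within counting noise. The testis sample of bird T142 carries a brain tag in 1 label field and testis in its title and source name. It was kept as testis, and the tracking and interaction results are also given without it where they differ. The tests in testis alone and the correlations between genes in testis were not repeated without it.

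The telencephalon is the front division of the bird brain. It holds the pallium, which processes sound, vision and learned song in songbirds, and the striatum beneath it. A piece dissected by hand mixes neurons, glia, blood vessels and coverings, so the level of a gene in it reflects both how many cells of a type were included and how much RNA each cell held, and these cannot be told apart. The files give Ensembl identifiers only, and none of them could be matched to a symbol in the gene table used. Genes are named by identifier, no function or position is attached to them, and the tissue label was not checked against marker genes.

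The 150 members had SDs of 0.329 to 3.33 on the log2 scale, with a median of 0.433, against a median of 0.166 over all 1697 eligible genes. Most members lay at the lower end of this range. The SD exceeded 0.5 in 53 members and 1 in 6 members. The bird with the highest level had a median of 3.76 times the CPM of the bird with the lowest, against 1.63 times over the eligible genes. For 18 members this ratio was above 10, and for 83 it was below 4. The members were of low to moderate abundance, with mean telencephalon levels of 5.07 to 357 CPM and a median of 11.8 CPM, against a median of 48.5 CPM over the eligible genes. Their median enrichment of 3.05 was close to the 3.02 of the eligible genes. The spread that counting alone would give had a median of 0.114 log2 units. It made up a median of 6.35% and at most 23.0% of a member's variance. No member was at 0 in any telencephalon library.

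**Figure D1:**
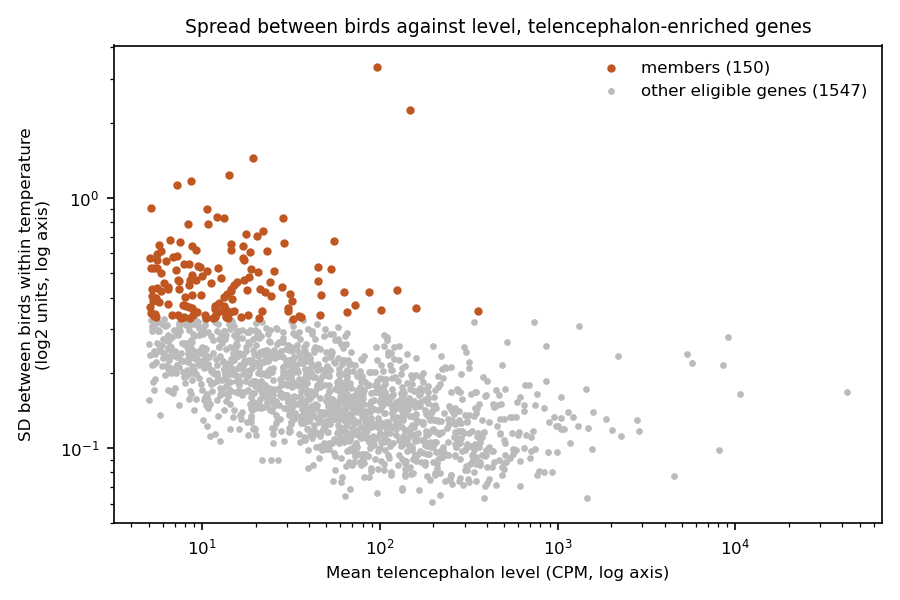
SD between birds within temperature (log2 units, log axis) against mean telencephalon level (CPM, log axis) for the 150 members and the other 1547 eligible genes. The members form the upper edge of the cloud by construction, most of them lie at low levels, and 2 genes stand far above the rest.

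At the threshold, the last 3 members were ENSTGUG00000011298, ENSTGUG00000010477 and ENSTGUG00000008003, with SDs of 0.331, 0.330 and 0.329. The next 3 eligible genes, ENSTGUG00000016319, ENSTGUG00000014167 and ENSTGUG00000008586, had 0.328, 0.326 and 0.326.

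The 2 most variable members stood apart from the others. ENSTGUG00000008939 had an SD of 3.33. Its lowest, median and highest levels in 8 birds were 0.0853, 42.4 and 333 CPM at 27 °C, 0.196, 38.6 and 362 CPM at 35 °C, and 0.267, 61.5 and 600.2 CPM at 43 °C. Every temperature group thus held birds with almost none of this transcript beside birds with a great deal of it, and the lowest value, in bird T149, rested on 1 count. In testis the same gene was found at 1.42 to 106 CPM. Bird T149, the lowest in telencephalon, had 10.1 CPM in testis. Birds T135, T136, T139, T148, T154, T155 and T158 also had more of it in testis than in telencephalon. The other birds with testis had more in telencephalon, so the enrichment of this gene is one of means.

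ENSTGUG00000008881, with an SD of 2.24, ran at 7.62, 62.1 and 141.04 CPM (lowest, median and highest) at 27 °C, at 7.45, 65.6 and 1077 CPM at 35 °C, and at 4.36, 21.3 and 815 CPM at 43 °C. Its 3 highest birds were T147 at 1077 CPM, T153 at 815 CPM and T144 at 625.2 CPM, and the fourth had 141.04 CPM. The first of these was a 35 °C bird and the other 2 were 43 °C birds. The 2 genes moved together in telencephalon over the 24 birds, with a Pearson r of 0.76 and a Spearman rho of 0.73 between their deviations from the temperature means. In testis the r of this pair was 0.0589.

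The third, ENSTGUG00000002903, had an SD of 1.45. Its lowest, median and highest levels were 2.11, 25.6 and 51.1 CPM at 27 °C, 2.41, 12.2 and 72.1 CPM at 35 °C, and 0.923, 3.65 and 36.2 CPM at 43 °C, so the medians were ordered by temperature while the ranges overlapped throughout. ENSTGUG00000012373 (SD 1.23) reached 38.9, 38.0 and 25.1 CPM in the highest bird of the 27, 35 and 43 °C groups, with lowest birds at 2.26, 2.84 and 3.23 CPM. ENSTGUG00000011832 (SD 1.17) had medians of 12.2, 2.66 and 3.68 CPM at 27, 35 and 43 °C, inside a whole range of 1.03 to 26.6 CPM. The other members among the 10 with the highest SD were ENSTGUG00000016279 (1.13), ENSTGUG00000008512 (0.908), ENSTGUG00000011528 (0.905), ENSTGUG00000002417 (0.838) and ENSTGUG00000008838 (0.830). In each of these 10 genes the ranges of all 3 temperature groups overlapped.

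**Figure D2:**
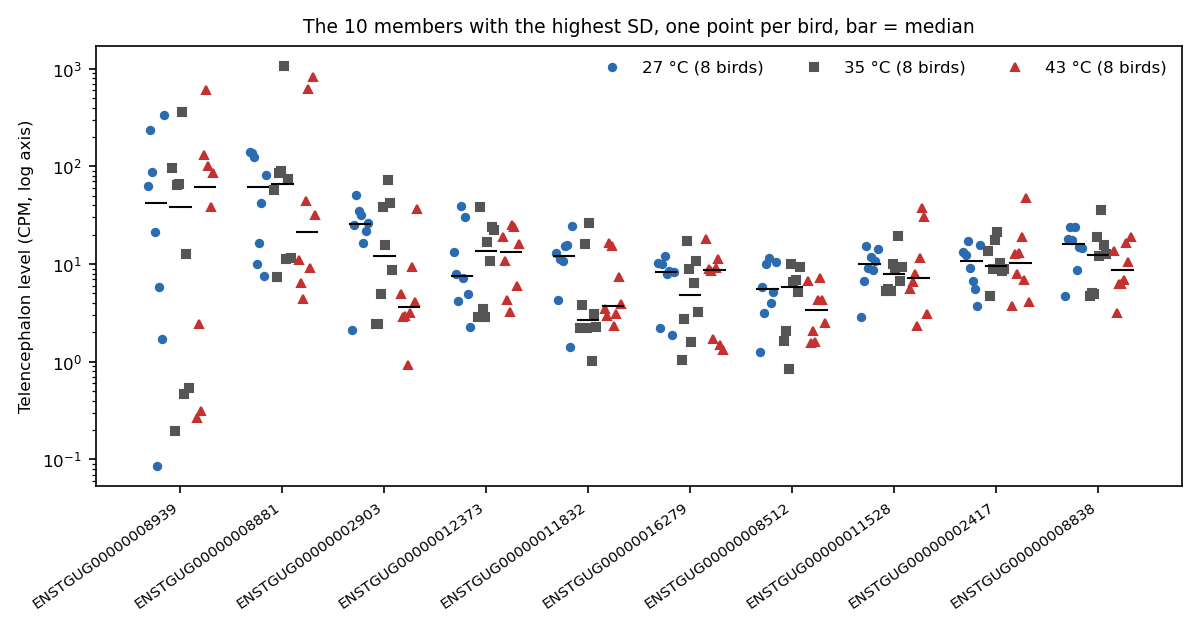
Telencephalon levels (CPM, log axis) of the 10 members with the highest SD, with 1 point for each of 24 birds in the order 27, 35 and 43 °C for each gene, and a bar at the group median. The spread within a temperature, from 0.0853 to 333 CPM at 27 °C for the first gene, is far wider than the distance between medians.

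The 5 members with the highest mean level were ENSTGUG00000004372 (357 CPM), ENSTGUG00000000634 (159.2 CPM), ENSTGUG00000008881 (146.8 CPM), ENSTGUG00000000003 (124 CPM) and ENSTGUG00000004381 (101 CPM). ENSTGUG00000004372 and ENSTGUG00000004381 were highest in the same bird, T144 at 43 °C. That bird had 622 CPM of the first, against a median of 312 CPM in its group, and 186 CPM of the second, against a median of 84.7 CPM. ENSTGUG00000000003 was lowest in bird T148 at 27 °C, with 46.4 CPM against a group median of 113 CPM.

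The variation was usually spread over many birds. The bird farthest from its temperature mean supplied a median of 20.9% of a member's summed squared deviations, against 20.2% for the eligible genes. This share exceeded 40% in 6 members and 50% in 1. The farthest bird lay above its group mean in 63 members and below it in 87. It was ENSTGUG00000014095 that rested most on 1 bird: T157 held 65.3% of its squares, with 3.58 CPM, against 17.9 to 39.0 CPM in the other 23 birds. In ENSTGUG00000011752, bird T147 held 48.1%, with 13.8 CPM against 30.4 to 75.0 CPM in the others. ENSTGUG00000012421 was high rather than low in its farthest bird, T151, which had 153.6 CPM where the other 27 °C birds had 55.6 to 68.1 CPM. Bird T157 was high as well, with 126.1 CPM where the other 35 °C birds had 50.28 to 63.35 CPM. ENSTGUG00000007933, with 45.3% in bird T153, and ENSTGUG00000018762, with 44.6% in bird T146, were both low in that bird. The remaining member above 40% was ENSTGUG00000012349, with 41.0% in bird T147, which was high; it was named after its values were seen.

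Many birds contributed to the spread. The farthest bird was T154 in 16 members, T156 in 11, T140 and T153 in 10 each, and every one of the 24 birds was farthest in at least 1. The median SD of the members was 0.442, 0.467 and 0.463 at 27, 35 and 43 °C, against 0.161, 0.166 and 0.177 for the eligible genes. The SD was highest at 27 °C in 36 members, at 35 °C in 54 and at 43 °C in 60. Over the eligible genes the highest SD fell at 27, 35 and 43 °C in 27.8%, 31.5% and 40.7%. The correlation of a member's deviations with the log2 library total had a median of 0.00623 and ran from −0.72 to 0.62, the eligible genes having a median of 0.00837 and a range of −0.72 to 0.74. The edgeR estimate of the biological coefficient of variation had a median of 29.6% over the members, against 13.7% over all 13254 genes tested. It reads the same spread that the members were selected on, so a higher value follows from the choice.

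The members did not vary as 1 block. Pearson correlations between members were computed over the 24 libraries on log2(CPM + 0.5) minus the temperature group mean, and are given without a test because the same values chose the genes. The points share a library, its depth and its dissection. Over 11175 pairs the median r was 0.00787 (0.00338 without bird T144 and 0.00489 without bird T146), against 0.0237 over all pairs of eligible genes. In 205 pairs (1.83%) r exceeded 0.5, and in 172 (1.54%) it was under −0.5. The shares for eligible pairs were 2.63% and 1.46%. An r above 0.7 was found in 22 member pairs (0.197%) and one under −0.7 in 8 (0.0716%), against 0.151% and 0.0466% of eligible pairs. The best partner of a member had a median r of 0.60, and 31 members had a partner above 0.7. The first principal component held 29.8% of the variance, and 14.9% without ENSTGUG00000008939 and ENSTGUG00000008881.

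Grouping by average linkage, at a mean r of at least 0.5, left 43 members alone. It placed 48 in pairs, 30 in sets of 3, 16 in sets of 4, 6 in 1 cluster and 7 in another. The cluster of 7, called cluster A here, held ENSTGUG00000008838, ENSTGUG00000002903, ENSTGUG00000008512, ENSTGUG00000005741, ENSTGUG00000004421, ENSTGUG00000001273 and ENSTGUG00000001504. Its pairs had a median r of 0.54, ranging from 0.33 to 0.89. Averaged over the 7 genes, bird T142 at 27 °C lay 1.49 log2 units below its temperature mean and bird T154 at 35 °C lay 0.85 above. The birds T137, T139 and T140 at 35 °C, and T136 and T141 at 43 °C, also lay more than 0.6 below, with averages of −0.80, −0.85, −0.69, −0.70 and −0.64. At 27 °C, T142 was the only bird that far below. Deviations are taken from each temperature's own mean, so every temperature holds birds below 0 by construction.

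The cluster of 6, called cluster B, held ENSTGUG00000009908, ENSTGUG00000000255, ENSTGUG00000011146, ENSTGUG00000011737, ENSTGUG00000001667 and ENSTGUG00000012255. Its pairs had a median r of 0.67, ranging from 0.37 to 0.93. The 2 clusters ran against each other. The r between their averages was −0.75 (rho −0.75, 24 birds), and −0.69 without bird T142, which was the lowest bird of cluster A and, at 0.62, the highest of cluster B. All 42 pairs of a cluster A gene with a cluster B gene had an r below 0, with a median of −0.51. Bird T156 showed the opposite arrangement, with 0.73 in cluster A and −0.52 in cluster B.

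**Figure D3:**
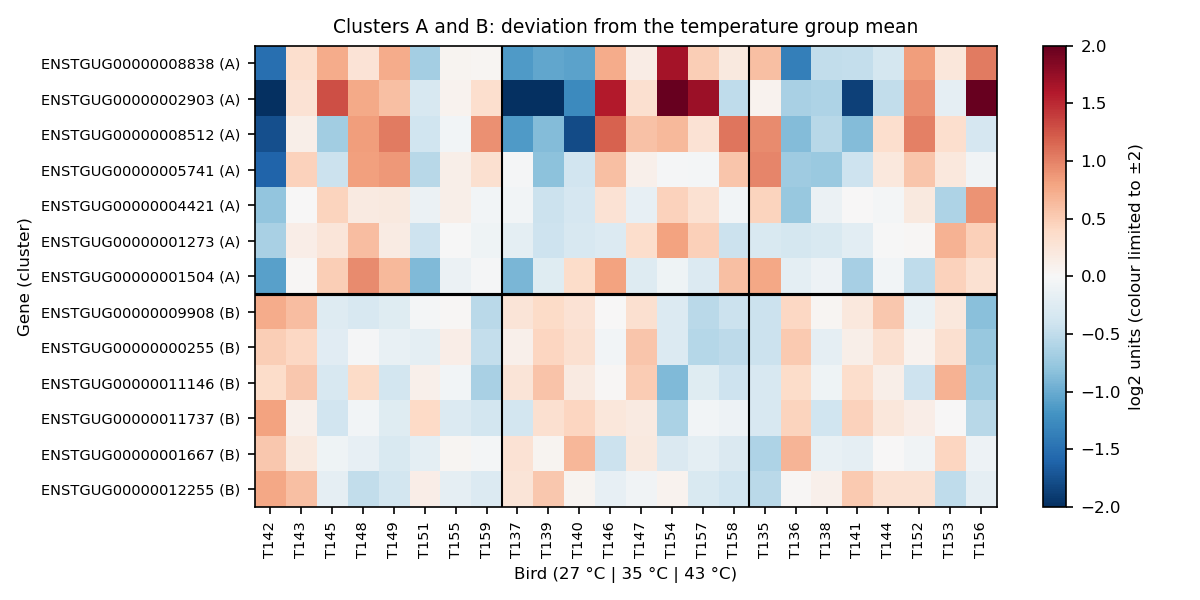
Deviation from the temperature group mean (log2 units, colour limited to 2 in either direction) of the 7 genes of cluster A above and the 6 genes of cluster B below, in 24 birds from 27 °C at the left to 43 °C at the right. Columns that are blue in cluster A, such as T142 at the left, are mostly red in cluster B, and the reverse.

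The outer edges of both clusters were loose. With each library left out in turn, all 7 genes of cluster A stayed in 1 cluster in 12 of 24 repeats and all 6 of cluster B in 7 of 24, and at least 4 genes of each stayed together in every repeat. The number of members in clusters of at least 5, 13 with all birds, was 6 without T136 or T156, 7 without T148, 21 without T137, 23 without T155 and 24 without T158. With rank correlations, 4 genes of each stayed together. Genes outside the clusters followed their averages too. Of 13247 other telencephalon genes 48 (0.362%) followed cluster A at r above 0.7, and of 13248 others 27 (0.204%) followed cluster B. Genes running against them at r under −0.7 numbered 12 (0.0906%) for cluster A and 29 (0.219%) for cluster B. No other member was above 0.7 with either average, and 3 members outside cluster B, those of cluster A included in the search, were under −0.7 with its average.

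Single pairs were tighter than the clusters. ENSTGUG00000009908 and ENSTGUG00000000255 had an r of 0.93 (rho 0.92), ENSTGUG00000004382 and ENSTGUG00000018357 also 0.93 (rho 0.91), ENSTGUG00000003730 and ENSTGUG00000003710 0.91 (rho 0.91), and ENSTGUG00000002903 and ENSTGUG00000008838 0.89 (rho 0.91). Without the 2 birds farthest from the median of the first gene, these r were 0.91, 0.94, 0.90 and 0.87. The lowest r of a pair was −0.80, between ENSTGUG00000011832 and ENSTGUG00000011752. Whether the genes of a pair overlap or share near-identical sequence was not examined, and reads of such genes could be counted for either one.

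The testis libraries of the same birds gave a separate reading of these pairs, since they did not enter the SD. They were usable for the 128 members that passed the count filter there, with 22 birds. The 14 pairs above 0.7 in telencephalon had a median r of 0.85 in telencephalon and of 0.0754 in testis. In testis 3 of the 14 also exceeded 0.7, against 24 of all 8128 member pairs measured in both tissues, whose median r there was 0.0400. The 3 were ENSTGUG00000012732 with ENSTGUG00000014089 (0.88 in telencephalon, 0.90 in testis), ENSTGUG00000004381 with ENSTGUG00000004372 (0.88 and 0.88), and ENSTGUG00000004382 with ENSTGUG00000018357 (0.93 and 0.80). ENSTGUG00000009908 with ENSTGUG00000000255, the closest pair in telencephalon, had −0.11 in testis. The 10 pairs among the 5 genes of cluster A measured in both tissues had a median r of 0.59 in telencephalon and −0.0833 in testis. For the 5 genes of cluster B these were 0.68 and −0.0884. The opposition of the clusters, a median of −0.50 over 25 pairs in telencephalon, was −0.0478 in testis. The rule chose genes that are low in testis, and the median of the members' mean levels was 1.34 CPM there, against 11.8 CPM in telencephalon. The pairs and clusters were also picked on their r in telencephalon, and that choice favours a lower r in any other data. What part this choice and the low levels have in the lower testis correlations was not tested.

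Whether a bird that was high for a gene in telencephalon was also high in testis was then tested for each gene. Deviations from the temperature mean in the 2 tissues were correlated over 22 birds, with a two-sided permutation test of birds within temperature and Benjamini-Hochberg adjustment over 12523 genes. Of the 128 members tested, 8 (6.25%) passed an adjusted p of 0.05, against 3.25% of all genes tested and 1.2% (18 of 1500) of the eligible genes that were not members. The relation was positive in 7 of the 8 (5.47% of the members tested, against 3.15% of all genes), as it was in 395 of the 407 genes that passed in all. The median r was 0.15 over the tested members and 0.14 over all genes. The tested members were also the more variable genes, with a median SD of 0.440 in telencephalon and 0.471 in testis, against 0.189 and 0.293 over all genes, and the part of that spread in the number of genes passing was not tested.

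ENSTGUG00000014738 followed most closely. Its telencephalon levels had a lowest, median and highest of 10.5, 12.7 and 39.5 CPM at 27 °C, 11.5, 15.1 and 33.2 CPM at 35 °C, and 10.7, 14.8 and 58.4 CPM at 43 °C. In testis they were 0.999, 1.17 and 4.95 CPM at 27 °C, 0.520, 1.37 and 4.21 CPM at 35 °C, and 0.773, 1.90 and 6.08 CPM at 43 °C. The 7 birds highest in telencephalon that had testis were also the 7 highest in testis. They had 21.4 to 58.4 CPM in telencephalon and 2.99 to 6.08 CPM in testis. The other birds with testis had 10.5 to 16.4 CPM and 0.520 to 2.02 CPM. This division was chosen after the values were seen. The widest gap between birds in telencephalon lay higher, between 23 birds at 10.5 to 39.5 CPM and 1 bird at 58.4 CPM. The r was 0.91 (permutation p = 1e-05, the smallest these permutations can give; adjusted p = 0.00298), the rho 0.85 (permutation p = 3e-05; adjusted p = 0.00751), and the r without the 2 birds farthest from the median 0.91. Leaving out single birds gave 0.89 to 0.93. No r within the 7 birds or within the others is given for this gene.

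ENSTGUG00000016279 took separate levels in different birds. In telencephalon 9 birds had 1.03 to 3.23 CPM and 15 birds had 6.44 to 18.1 CPM, with none between. The 8 low birds with testis had 0.438 to 1.01 CPM there, below the 1.56 to 3.43 CPM of the other 14. The same birds were low in both tissues, with no overlap. At 27, 35 and 43 °C the low birds numbered 2, 4 and 3 and the high birds 6, 4 and 5. The gene passed the tracking test at an adjusted p of 0.00298 by permutation. Because the birds fell into 2 sets, r is given within them, 0.52 among the 8 low and 0.69 among the 14 high birds.

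In ENSTGUG00000011752, bird T147 was lowest in both tissues, with 13.8 CPM in telencephalon and 4.05 CPM in testis, against 30.4 to 75.0 CPM and 7.39 to 14.1 CPM in the other birds. Its r was 0.88 over 22 birds (permutation p = 1e-05, adjusted p = 0.00298), with a rho of 0.77 (permutation p = 1e-04), and r was 0.77 among the 21 other birds and 0.71 without the 2 farthest birds. ENSTGUG00000014095 had its low bird, T157, low in testis as well, at 0.703 CPM against 1.27 to 5.09 CPM. The r was 0.75 (permutation p = 3e-05, adjusted p = 0.00522) with a rho of 0.68 (permutation p = 3e-04), and it was 0.73 among the 21 other birds and 0.70 without the 2 farthest.

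ENSTGUG00000000634 was low in 3 birds, at 83.0 to 89.3 CPM against 118 to 210 CPM, and those 3 were the lowest in testis, at 9.06 to 10.5 CPM against 13.8 to 30.7 CPM. Its r was 0.78 (permutation p = 0.00037, adjusted p = 0.0204), with a rho of 0.63 (permutation p = 0.00405). Among the other 19 birds r was 0.52, and without the 2 farthest birds it was 0.65. ENSTGUG00000015636 had an r of 0.75 (permutation p = 9e-05, adjusted p = 0.00963), a rho of 0.79 (permutation p = 3e-05) and an r of 0.77 without the 2 farthest birds. ENSTGUG00000000307 had an r of 0.71 (permutation p = 0.00104, adjusted p = 0.0384) and a rho of 0.62 (permutation p = 0.00388). Without its 2 farthest birds r was 0.55.

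The single negative relation was that of ENSTGUG00000000750, with an r of −0.69 (permutation p = 0.00068, adjusted p = 0.0313) and a rho of −0.62 (permutation p = 0.00363). Birds T152, T159 and T157 were the lowest in telencephalon, at 18.2, 18.4 and 20.1 CPM, and had 12.4, 3.60 and 7.52 CPM in testis, where the median bird of each temperature had 2.00 to 2.09 CPM. Without the 2 farthest birds r was −0.47.

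**Figure D4:**
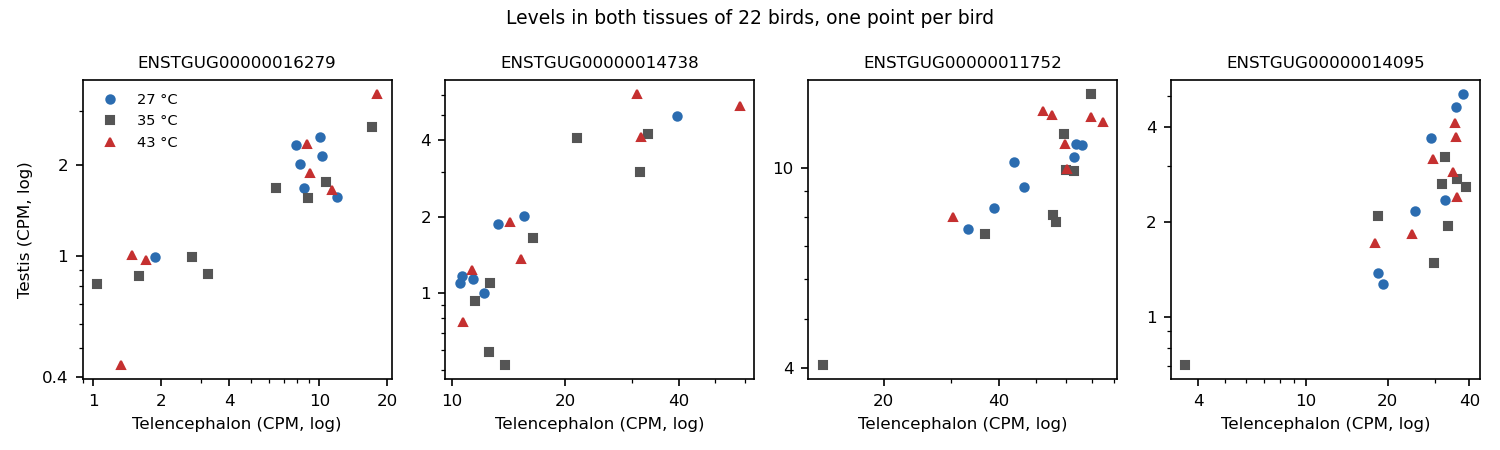
Testis level against telencephalon level (CPM, log axes) of 4 members in 22 birds, with circles for 27 °C, squares for 35 °C and triangles for 43 °C. In ENSTGUG00000016279 the birds form 2 sets, 1.03 to 3.23 CPM and 6.44 to 18.1 CPM in telencephalon, while in ENSTGUG00000011752 and ENSTGUG00000014095 1 bird lies below the rest in both tissues.

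The testis data rest on a paired-end and a single-end column per bird, which were summed. Some calls were lost with the paired-end column alone, and none with the single-end column alone. With the paired-end column alone 5 of the 8 members passed, and with the single-end column alone all 8 passed. Without birds T154, T156 and T157, in which the paired-end column was the deeper one, 4 passed. That setting also has fewer birds. Of the members lost there, ENSTGUG00000000634 (r 0.81) and ENSTGUG00000000307 (0.72) had a larger r than with all birds. In ENSTGUG00000015636 (0.71) and ENSTGUG00000000750 (−0.66) it was smaller in size. With ranks 5 passed, and 5 passed without bird T142, whose testis sample carries a conflicting tissue label. ENSTGUG00000014738, ENSTGUG00000016279 and ENSTGUG00000011752 passed in all 8 alternatives. ENSTGUG00000014095 and ENSTGUG00000015636 passed in 7, ENSTGUG00000000634 in 5, and ENSTGUG00000000307 and ENSTGUG00000000750 in 4.

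Temperature came next. The comparisons ask whether 5 h above or below the thermoneutral zone changed the level of these genes, and the group means they use did not enter the SD. The spread within groups, which the tests divide by, is what the members were selected on, so wide errors partly follow from the choice of genes. What part this has in the number of calls was not tested. All 150 members passed the count filter, and edgeR's quasi-likelihood test was fitted on 13254 genes. No member passed a Benjamini-Hochberg adjusted p of 0.05 in any comparison. For 43 against 35 °C the background was 0.00754% of all genes, for 27 against 35 °C 0%, and for 43 against 27 °C 0.0226%. The smallest adjusted p of a member was 0.371, 0.9999 and 0.245 in these comparisons. DESeq2 called 8, 0 and 51 genes, and none of the members to which it gave an adjusted p, which were 11, 150 and 150.

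Counts at an unadjusted p under 0.05 lay near the background as well. At 43 against 35 °C there were 14 members (9.33%), 9 with higher and 5 with lower levels at 43 °C, against 9.1% of all genes, 4.95% higher and 4.15% lower. At 27 against 35 °C there were 5 members (3.33%), 2 higher and 3 lower, against 3.38%, 1.66% and 1.72%. That count was 10 without the 35 °C library of bird T157. At 43 against 27 °C there were 20 members (13.3%), 8 higher and 12 lower, against 10.9%, 5.63% and 5.28%. The 35 °C birds serve in the first 2 comparisons and the 43 and 27 °C birds in 2 each. The median log2 fold change over the members was 0.02, 0.05 and −0.02 in the 3 comparisons, and 0.00 over all genes.

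Intervals were wide for these genes, as the selection on spread entails. The median standard error of a member's log2 fold change was 0.22 in every comparison, against 0.10 over all genes. The 95% interval excluded a change of 2-fold in either direction in 121, 129 and 123 of the 150 members. For the others, a 2-fold difference between temperatures was not excluded. The median size of the fold change was 0.19, 0.15 and 0.21 log2 units, against 0.08, 0.06 and 0.09 over all genes, and these sizes too grow with the spread that chose the members.

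**Figure D5:**
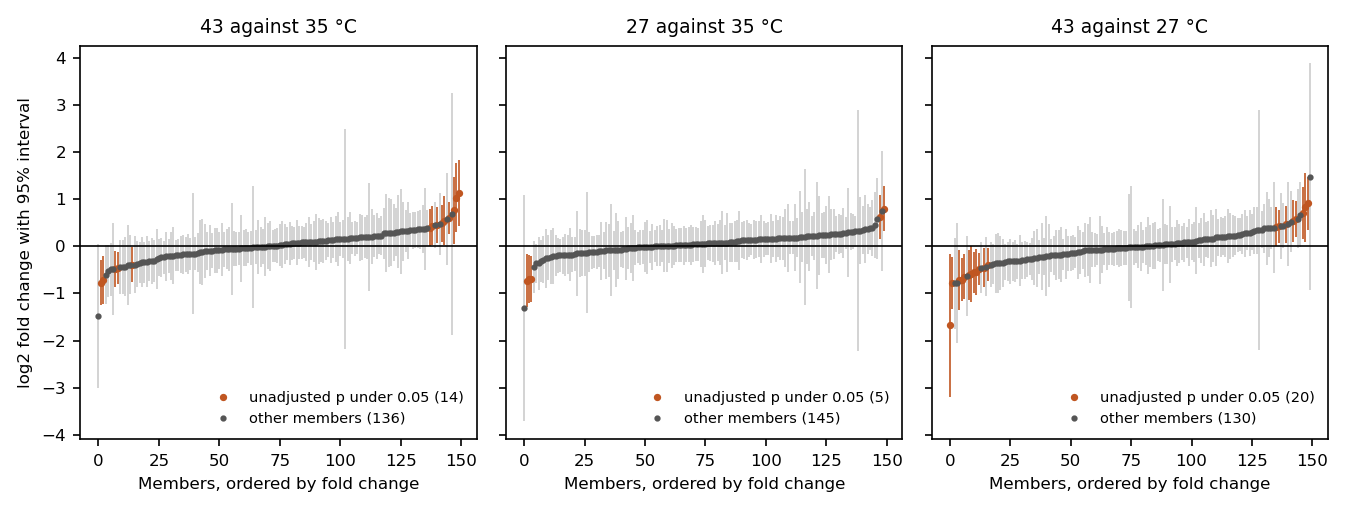
Log2 fold change with its 95% interval for each of the 150 members, ordered by fold change, for 43 against 35 °C, 27 against 35 °C and 43 against 27 °C. Orange marks the 14, 5 and 20 members with an unadjusted p under 0.05, and the widest intervals, those of the most variable genes, span several log2 units around 0.

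The members with the smallest p at 43 against 35 °C are given next. They include the largest rise of that comparison, in ENSTGUG00000008789, but not the largest fall, in ENSTGUG00000002903. Log2 fold changes over the 150 members ran from −1.49 to 1.12 in that comparison. They ran from −1.32 to 0.79 at 27 against 35 °C, and from −1.68 to 1.47 at 43 against 27 °C. ENSTGUG00000010053 had a lowest, median and highest level of 15.04, 23.5 and 32.1 CPM at 43 °C, against 8.65, 15.8 and 17.8 CPM at 35 °C. Its ranges overlapped, and its log2 fold change was 0.60 ± 0.17 (SE; adjusted p = 0.371). ENSTGUG00000008789 had 4.37, 10.1 and 18.1 CPM at 43 °C, against 2.51, 5.03 and 8.50 CPM at 35 °C, a log2 fold change of 1.12 ± 0.34 (adjusted p = 0.371). ENSTGUG00000010565 had 11.6, 20.2 and 56.1 CPM at 43 °C, against 3.53, 13.7 and 20.7 CPM at 35 °C, with 1.03 ± 0.35 (adjusted p = 0.408).

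The paired genes ENSTGUG00000018357 and ENSTGUG00000004382 had lower medians at both 43 and 27 °C than at 35 °C. ENSTGUG00000018357 had 4.72, 7.34 and 10.5 CPM at 43 °C and 5.23, 7.04 and 13.8 CPM at 27 °C, against 5.53, 12.7 and 20.9 CPM at 35 °C. Its log2 fold change was −0.77 ± 0.24 at 43 °C (adjusted p = 0.371) and −0.70 ± 0.23 at 27 °C (adjusted p = 0.9999). ENSTGUG00000004382 had 5.48, 8.58 and 11.8 CPM at 43 °C and 3.89, 8.49 and 13.7 CPM at 27 °C, against 5.25, 13.8 and 24.7 CPM at 35 °C, with −0.71 ± 0.25 (adjusted p = 0.408) and −0.70 ± 0.25 (adjusted p = 0.9999). Both were highest in bird T146 at 35 °C. The shared 35 °C birds enter both comparisons, and neither gene passed the test in either.

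At 27 against 35 °C the smallest p was that of ENSTGUG00000006935, at 2.98, 6.67 and 12.8 CPM at 27 °C against 3.05, 4.11 and 6.28 CPM at 35 °C, a log2 fold change of 0.79 ± 0.24 (adjusted p = 0.9999). ENSTGUG00000001074 had 6.41, 9.65 and 13.3 CPM at 27 °C, against 4.38, 5.67 and 11.4 CPM at 35 °C, with 0.62 ± 0.22 (adjusted p = 0.9999). At 43 °C it had 2.68, 5.83 and 8.43 CPM, and the fold change of 43 against 27 °C was −0.71 ± 0.22 (adjusted p = 0.263). ENSTGUG00000013905 ran the other way, at 5.78, 12.6 and 14.96 CPM at 27 °C, against 6.88, 16.9 and 30.1 CPM at 35 °C (log2 fold change −0.73 ± 0.27, adjusted p = 0.9999). It had 8.72, 21.1 and 34.5 CPM at 43 °C, and 43 against 27 °C gave 0.90 ± 0.27, the smallest adjusted p of any member at 0.245.

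The others with the smallest p at 43 against 27 °C were ENSTGUG00000002247, ENSTGUG00000006154 and ENSTGUG00000016929. ENSTGUG00000002247 had 12.1, 14.0 and 17.8 CPM at 43 °C, against 5.98, 9.68 and 13.4 CPM at 27 °C, with 0.57 ± 0.19 (adjusted p = 0.267). ENSTGUG00000006154 had 2.25, 5.08 and 8.26 CPM at 43 °C, against 5.26, 7.99 and 15.9 CPM at 27 °C, with −0.79 ± 0.27 (adjusted p = 0.286). ENSTGUG00000016929 had 7.83, 10.9 and 14.6 CPM at 43 °C, against 9.95, 15.9 and 22.01 CPM at 27 °C, with −0.47 ± 0.17 (adjusted p = 0.293). In each of the 3 the ranges overlapped.

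No gene of either cluster passed the temperature test, and the clusters were not tested as units. In cluster A, 6 of 7 genes had a negative log2 fold change at 43 against 35 °C, from −0.31 for ENSTGUG00000004421 to −1.49 for ENSTGUG00000002903, and ENSTGUG00000001504 had 0.29. In cluster B all 6 were positive, from 0.22 for ENSTGUG00000012255 to 0.48 for ENSTGUG00000000255. At 43 against 35 °C, 49.3% of all genes and 53.3% of the members had a positive log2 fold change. Signs in the other comparisons are not given here. Since genes of a cluster move together between birds, their signs are not separate observations.

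The difference in temperature response between the tissues was tested as an interaction over 46 libraries and 12523 genes, with 128 members included. This fit treated the 2 tissues of a bird as separate libraries, so its errors and p-values do not use the pairing. The bird as a replicate block was an alternative. No member passed an adjusted p of 0.05 for 43 against 35 °C, 27 against 35 °C or 43 against 27 °C, where 0% of all genes passed. The median standard error of a member's difference was 0.45, 0.45 and 0.46 log2 units, against 0.20, 0.20 and 0.21 over all genes. The interval excluded a 2-fold difference in either direction in 30, 37 and 32 of the 128 members. For most members, a 2-fold difference in response between the tissues was therefore not excluded. An unadjusted p under 0.05 was found in 13 (10.2%), 5 (3.91%) and 11 (8.59%) members, against 9.97%, 3.39% and 7.29% of all genes. The second count was 8 without the testis library of bird T142. In testis alone no member passed either, the background again being 0%. The testis interval excluded a 2-fold change in 52, 60 and 46 of the 128 members, so for most it was not excluded. There 11 (8.59%), 6 (4.69%) and 14 (10.9%) members had an unadjusted p under 0.05, against 7.94%, 4.33% and 6.17% of all genes. Of the 14 at 43 against 27 °C, 12 were lower at 43 °C (9.38%, against 3.3% of all genes) and 2 higher (1.56%, against 2.87%).

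ENSTGUG00000009908, of cluster B, had the smallest interaction p at 43 against 27 °C. Its telencephalon levels were 28.3, 55.7 and 74.2 CPM at 43 °C, against 29.8, 39.7 and 73.3 CPM at 27 °C, and in testis it had 0.441, 1.16 and 2.00 CPM at 43 °C, against 1.62, 2.92 and 3.64 CPM at 27 °C. The log2 fold change was 0.22 ± 0.20 in telencephalon and −1.02 ± 0.30 in testis, a difference of 1.27 ± 0.35 (adjusted p = 0.343). For 43 against 35 °C the difference was 1.09 ± 0.35 (adjusted p = 0.284), in testis from 0.441, 1.16 and 2.00 CPM at 43 °C against 1.13, 2.20 and 3.29 CPM at 35 °C.

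ENSTGUG00000018357 differed between tissues by −1.08 ± 0.35 at 43 against 35 °C (adjusted p = 0.284), and by −0.64 with the paired-end testis column alone. At 27 against 35 °C its difference was −0.85 ± 0.35 (adjusted p = 0.9999). ENSTGUG00000000214 had the largest interaction in size, −3.05 ± 0.91 at 43 against 27 °C (adjusted p = 0.402) and 2.34 ± 0.90 at 27 against 35 °C (adjusted p = 0.9999). In telencephalon it had 3.37, 10.8 and 34.0 CPM at 43 °C, 10.99, 19.1 and 34.0 CPM at 35 °C and 16.2, 22.5 and 28.1 CPM at 27 °C. In testis its highest bird had 29.7 CPM at 43 °C and 28.4 CPM at 35 °C, against medians of 2.16 and 1.90 CPM, and 2.19 CPM at 27 °C against a median of 0.909 CPM. With the bird as a replicate block its difference at 27 against 35 °C was 1.24.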

How the data were processed

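The authors deposited raw counts per gene in 1 table per tissue, whole numbers without normalization. The deposited testis values, recorded here under the unit other, are also raw counts, in a paired-end and a single-end column per bird that were summed. A stranded mRNA kit was used, per the labels' protocols. CASAVA, Trimmomatic 0.36, HISAT2 2.1.0 and featureCounts 1.6.4 appear in the submitters' processing notes. Their settings were not given in the sources used here, and neither is the genome build or the annotation. All columns were used and each named a sample.

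The members and the lists were chosen with earlier results of these data known. Cell type marker lists need symbols, of which 0 identifiers had one, and were not run. The filterByExpr function removed low genes (minimum count 10, minimum total 15), TMM factors were applied, and the robust quasi-likelihood F test of edgeR 4.0.16 under R 4.3.3 was run over the 3 groups of a tissue, or over all 6 groups for the interaction. p-values were adjusted over all genes tested, standard errors came from the F statistic, and DESeq2 1.42.0 was an alternative. Telencephalon counts were simulated for 43 against 35 °C (13195 genes). Of 100 genes changed 1.5-fold 86 were recovered, and of 100 changed 2-fold 96, with 12 false calls. The changed genes were drawn from all telencephalon genes of at least 5 CPM and kept their own spread. The members varied more, with a median biological coefficient of variation of 29.6%, against 13.7% over all genes tested. These recovery rates therefore do not describe the members. The tracking test drew 100000 permutations. Plain CPM used column totals.

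The labels gave the groups, and the title gave the bird number used as replicate. The same number is the same bird, so it pairs the tissues. Deviations of a bird's 2 tissues correlated at a mean r across 12523 genes of 0.153 (0.0583 to 0.241 over 22 birds). The replicates are separate birds. Within a group, the chi-square over its degrees of freedom for 2 libraries was at least 7.94 in telencephalon and 27.5 in testis. The testis sample of bird T142 carries a brain tissue tag against its title and source name, and was kept as testis.

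The genes named were the 10 members with the highest SD, the 5 with the smallest p in each telencephalon comparison, the 3 most central of each cluster, those passing the tracking test, the 5 resting most on 1 bird, the 2 with the smallest p per interaction, the 3 on each side of the threshold and the 5 with the highest mean level. The correlations in testis, the levels of single genes by bird set, the birds named in the clusters and the gene pairs were chosen after their values were seen. Alternatives were another normalization, no count filter, another tool, only the 2 groups compared, each library left out, rank correlation, other pseudocounts, other tree heights, single testis columns and a bird block. Leaving out birds T154, T156 and T157 was chosen after seeing the data.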

Additional observations from a re-analysis of the deposited data

Results flagged for a closer look

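Single birds far from the others of their group, by Dixon's criterion for 8 or 7 samples at its 95% level, were found in 16 of the groups of named genes examined, 123 in telencephalon and 24 in testis. Chance flags about 1 in 20 groups, here 7.35. The members were selected on their spread between birds, and 5 of the named genes because they rested most on 1 bird. The second choice favours such birds, the part of the first was not tested, and nothing is read from the excess. In telencephalon these were 13 of 123 groups. At 27 °C, bird T142 had 2.105 CPM of ENSTGUG00000002903 and 118.5 CPM of ENSTGUG00000000634, both low. Bird T155 had 3.886 CPM of ENSTGUG00000004382 and 23.91 CPM of ENSTGUG00000000307, also both low, and bird T151 had 153.6 CPM of ENSTGUG00000012421, which was high. At 35 °C the low values were 8.654 CPM of ENSTGUG00000010053 in T140, 3.582 CPM of ENSTGUG00000014095 in T157, 13.84 CPM of ENSTGUG00000011752 in T147, and 89.27 CPM of ENSTGUG00000000634 and 2.046 CPM of ENSTGUG00000018762 in T146. A high value was 126.1 CPM of ENSTGUG00000012421 in T157. At 43 °C, T153 had 3.204 CPM of ENSTGUG00000007933, which was low, and T144 had 185.6 CPM of ENSTGUG00000004381, which was high.

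In testis, 3 of 24 groups held such a bird, and all 3 values were high. They were 4.945 CPM of ENSTGUG00000014738 in T142 at 27 °C, 3.596 CPM of ENSTGUG00000000750 in T159 at 27 °C, and 7.518 CPM of ENSTGUG00000000750 in T157 at 35 °C.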

How the results depend on the processing

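No member passed the adjusted threshold for temperature in any of 28 alternatives per comparison, or in the interaction with the bird as a replicate block, where the unadjusted counts were 12, 5 and 15 members, against 13, 5 and 11 without the block. Leaving out 1 telencephalon library gave unadjusted counts of 10 to 19 members at 43 against 35 °C, 5 to 10 at 27 against 35 °C and 15 to 26 at 43 against 27 °C. At 27 against 35 °C the count was 10 without bird T157, against 5. The interaction at 27 against 35 °C had 8 members without the testis library of T142, against 5. Tracking gave 5 members with Spearman's rho, 5 with the paired-end column alone, 5 without bird T142 and 4 without birds T154, T156 and T157, against 8. All 8 passed with the single-end column alone. The median pairwise r was 0.0130 with Spearman's rho and 0.00334 with TMM scaling, and 0.00338 to 0.00931 with 1 library left out, against 0.00787. Members in clusters of at least 5 numbered 5 with Spearman's rho, 32 at a mean r of 0.4 and 0 at 0.6, against 13, and 6 to 24 with 1 library left out. Of 508 repeats on single genes, 495 kept their direction and side of the threshold and 13 lost the call, and none reversed. Only the 8 tracking results, with 8 alternatives each, had a call to lose, and all 13 losses were among them. The temperature and interaction results of single genes had not passed in the first place, so most of the 495 say little about stability. Of the 150 members, at least 140 were chosen again under other scalings, pseudocounts or with 1 library left out. With 8 birds at each temperature, the temperature comparisons reach no further than the intervals given.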
